A study of Mus musculus with 8 samples.

Results

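The 8 genes described here are Hmgcs1, Idi1, Fdps, Fdft1, Sqle, Lss and Cyp51, which encode enzymes of cholesterol synthesis, and Srebf2, which encodes the transcription factor SREBP2 that switches these enzymes on. They were chosen by symbol, with earlier results of these data known, and all 8 were found among the 15047 genes of the table. RNA-Seq had been made from the pancreas of 8 male mice in 3 groups. The LFD group was 3 C57BL/6 WT mice on a low-fat diet and the HFD group was 3 C57BL/6 WT mice on a high-fat diet with 60% of calories from fat, each fed over 10 weeks to mice that were 4 weeks old at the start. The third group was 2 C57BL/6J ob/ob mice, leptin-deficient animals put on standard chow at the same age of 4 weeks, so that genotype and chow cannot be told apart in any comparison with LFD. The labels call the tissue pancreas, and the study describes the same mice as bearing orthotopic transplants of mT organoids. These are cultures from mice with a Pdx1-Cre-driven pancreatic cancer that includes mutant Trp53, and the hosts keep their own pancreas and immune cells. In such bulk tissue, fewer cells of a type and less RNA per cell cannot be told apart.

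Cholesterol is built from acetyl-CoA through mevalonate, the isoprenoid farnesyl diphosphate, squalene and lanosterol. SREBP2 sits in the membrane of the endoplasmic reticulum with the escort protein SCAP, and when membrane cholesterol is low it is carried to the Golgi, cut, and sent to the nucleus, where it activates the genes of cholesterol synthesis and uptake. When cholesterol is plentiful, INSIG proteins hold SCAP and SREBP2 back. The route supplies cholesterol for the membranes of dividing cells, and its genes are expressed in most tissues.

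Values are rlog values, a log2 scale corrected for library size on which the mice are drawn toward each other in genes with few reads. They are not corrected for gene length, so levels are compared within a gene only. Over all genes they ran from 0.466 to 24.3, the medians of the mice lay between 7.09 and 7.25, and the correlation of pairs of mice lay between 0.884 and 0.982. No 2 mice held identical values. Read depth per mouse is unknown here, so the error given is the spread between mice. Mice are called by group and replicate number, and values are listed in the order of replicates 1, 2 and 3 for LFD and HFD, and 1 and 2 for ob/ob. Differences were tested with limma across all genes, and adjusted p is the Benjamini-Hochberg value over all 15047 genes.

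The pancreatic tissue was checked by 13 acinar genes for digestive enzymes, such as Cpa1, Cela1, Prss2 and Pnlip. Their mean rlog value was 19.8, 20.0 and 20.2 in LFD mice, 20.1, 18.0 and 16.02 in HFD mice and 19.4 and 16.4 in ob/ob mice, and no acinar gene was under 14.4 in any mouse. Acinar RNA was thus present in every mouse, and lower in HFD 2, HFD 3 and ob/ob 2 than in the others. The same 3 mice also had the 3 highest mean values of 5 proliferation genes, Mki67, Top2a, Cdk1, Ccnb1 and Birc5.

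In the upstream sequence of these genes, SREBP2 is known to bind sterol regulatory elements, usually with help from the factors NF-Y at CCAAT boxes and SP1 at GC boxes. Of the 8 genes, 5 matched the RefSeq promoter table of GRCm38.p6, namely Hmgcs1, Idi1, Lss, Cyp51 and Srebf2. Fdps, Fdft1 and Sqle did not match. The 250 bases before the RefSeq start are shown for Hmgcs1, Idi1 and Cyp51, whose values were high in HFD 2 and HFD 3, and for Lss, whose values were not. Srebf2, also highest in HFD 2 and HFD 3, is included in the counts of motifs below but its stretch is not printed. Capitals mark TCACNCCAC (a sterol regulatory element core, N being any base), CCAAT and GGGCGG, or their reverse complements GTGGNGTGA, ATTGG and CCGCCC. No motif overlaps another in these stretches. Gencode M21, used for the gene positions given further on, starts Idi1, Cyp51 and Lss earlier than RefSeq does, so the last bases of these 3 stretches lie inside the Gencode gene.
Hmgcs1, chr13:119690101-119690350, plus strand: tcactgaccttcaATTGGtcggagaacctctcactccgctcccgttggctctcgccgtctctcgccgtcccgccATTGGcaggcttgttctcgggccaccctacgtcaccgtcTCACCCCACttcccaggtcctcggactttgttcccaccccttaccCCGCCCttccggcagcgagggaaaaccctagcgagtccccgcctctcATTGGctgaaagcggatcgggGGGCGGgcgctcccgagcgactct
Idi1, chr13:8885356-8885605, plus strand: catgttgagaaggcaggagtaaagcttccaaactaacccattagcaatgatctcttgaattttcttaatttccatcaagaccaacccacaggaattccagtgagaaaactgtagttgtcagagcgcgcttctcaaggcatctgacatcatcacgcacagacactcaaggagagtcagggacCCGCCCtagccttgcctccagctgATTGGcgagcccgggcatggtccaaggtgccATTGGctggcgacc
Lss, chr10:76531355-76531604, plus strand: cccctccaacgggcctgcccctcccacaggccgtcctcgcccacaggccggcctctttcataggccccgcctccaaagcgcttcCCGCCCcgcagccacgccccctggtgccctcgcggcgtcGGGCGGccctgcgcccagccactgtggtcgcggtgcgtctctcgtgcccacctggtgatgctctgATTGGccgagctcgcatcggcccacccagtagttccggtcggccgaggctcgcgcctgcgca
Cyp51, chr5:4104698-4104947, minus strand: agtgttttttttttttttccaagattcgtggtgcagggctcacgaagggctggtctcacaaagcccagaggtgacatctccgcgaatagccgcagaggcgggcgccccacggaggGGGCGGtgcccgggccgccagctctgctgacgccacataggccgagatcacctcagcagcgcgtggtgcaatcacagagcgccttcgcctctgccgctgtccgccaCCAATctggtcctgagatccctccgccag
The core TCACNCCAC was found only in Hmgcs1, beginning 137 bases before the start, and in 1.24% of all 32851 promoters when the window runs from 250 bases before to 50 bases after the start. Only this spelling and its reverse complement were searched, so a sterol regulatory element spelled otherwise would not be found. CCAAT or its reverse was found in 5 of 5 genes and in 37.4% of all promoters, and GGGCGG or its reverse in 5 of 5 and in 35.7%. The E-box CACGTG was found in 0 of 5 and in 7.15%. The printed stretches hold 51.2% to 73.6% G and C, beside a median of 52.4% over all promoters. These matches describe letters in a window, and Lss carries CCAAT and GC boxes as Idi1 and Cyp51 do.

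Between HFD and LFD, Cyp51, Idi1, Sqle and Hmgcs1 had higher mean values in HFD, by 0.60 to 1.17 on the log2 scale, with unadjusted p-values under 0.05. Fdps and Srebf2 had higher means too, with larger p-values, and Fdft1 and Lss had lower means. None of the 8 had an adjusted p under 0.05, and the same was true of all genes, of which 0% passed. The count of 4 genes higher with an unadjusted p under 0.05 stands beside 11.5% of all genes, and the count of 0 lower beside 8.35%. Values of HFD and LFD did not overlap in 2 of the 8, both higher in HFD, beside 12.9% of all genes higher and 12.3% lower without overlap. The median difference of the 8 was 0.54, and that of all genes 0.03.

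Between ob/ob and LFD, Cyp51, Sqle, Idi1 and Hmgcs1 had mean values higher by 0.36 to 0.79 in ob/ob, and Fdps by 0.18. Fdft1, Lss and Srebf2 had lower means, and Cyp51 alone had an unadjusted p under 0.05. That count of 1 higher stands beside 11.6% of all genes, and 0 lower beside 7.18%. Again 0% of all genes passed the adjusted test. Values did not overlap in Hmgcs1, Idi1, Sqle and Cyp51, all higher in ob/ob, beside 24.1% of all genes higher and 21.8% lower without overlap. The median difference of the 8 was 0.27, and that of all genes 0.04. Both comparisons use the same 3 LFD mice, so they are not independent of each other.

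Hmgcs1, which joins acetoacetyl-CoA and acetyl-CoA into HMG-CoA, lies at chr13:119690379-119708260 on the plus strand (GRCm38, Gencode M21). Its values were 8.58, 8.48 and 8.82 in LFD mice, 8.63, 9.49 and 9.55 in HFD mice and 9.11 and 8.85 in ob/ob mice. HFD 2 and HFD 3 were highest, HFD 1 lay inside the LFD range, and both ob/ob mice lay above every LFD mouse. The means were 8.63 ± 0.175 (SD, n = 3) in LFD, 9.23 ± 0.516 (n = 3) in HFD and 8.98 ± 0.183 (n = 2) in ob/ob. HFD exceeded LFD by 0.60 (SE 0.258, 95% interval 0.0113 to 1.19, limma adjusted p = 0.248). For ob/ob against LFD the difference was 0.36 (SE 0.289, limma adjusted p = 0.491).

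Idi1 turns isopentenyl diphosphate into dimethylallyl diphosphate, the starter of isoprenoid chains, and lies at chr13:8885501-8892451 on the plus strand. Its values were 6.26, 6.63 and 6.54 in LFD mice, 6.95, 7.84 and 7.77 in HFD mice and 7.24 and 6.91 in ob/ob mice. All 5 HFD and ob/ob mice lay above all LFD mice. Means of LFD, HFD and ob/ob mice were 6.47 ± 0.192, 7.52 ± 0.492 and 7.07 ± 0.234 (SD, in this order below). The HFD minus LFD difference was 1.05 (SE 0.278, 95% interval 0.41 to 1.68), or 2.06-fold on the rlog scale, with limma adjusted p = 0.18. The ob/ob minus LFD difference was 0.60 (SE 0.311), with limma adjusted p = 0.315.

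Fdps, on chr3:89093588-89101959 (minus strand), makes farnesyl diphosphate, from which squalene, ubiquinone side chains and protein prenyl groups are drawn. Its values were 8.03, 8.51 and 8.05 in LFD mice, 8.15, 8.88 and 9.01 in HFD mice and 8.41 and 8.34 in ob/ob mice. HFD 2 and HFD 3 were again highest, but LFD 2 exceeded HFD 1 and both ob/ob mice, so the groups overlapped. Means were 8.20 ± 0.271, 8.68 ± 0.466 and 8.37 ± 0.0461. The differences from LFD were 0.48 in HFD (SE 0.255, limma adjusted p = 0.313) and 0.18 in ob/ob (SE 0.285, limma adjusted p = 0.741).

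Fdft1, squalene synthase, is the first enzyme of the branch that leads only to sterols. It lies at chr14:63145150-63179578 on the minus strand and overlaps Ctsb on the other strand. Reads from any transcript sequence common to both genes could not be told apart if the counting did not use strand, which the sources used here do not give. Whether the transcripts of Fdft1 and Ctsb overlap was not checked. Fdft1 had values of 8.93, 8.58 and 9.20 in LFD mice, 8.80, 8.79 and 8.60 in HFD mice and 8.73 and 8.11 in ob/ob mice. LFD 3 and LFD 1 were highest and ob/ob 2 lowest, an order unlike that of Hmgcs1 and Idi1, with overlap between all groups. Means were 8.91 ± 0.309, 8.73 ± 0.114 and 8.42 ± 0.439. Against LFD the difference was -0.18 in HFD (SE 0.224, limma adjusted p = 0.67) and -0.48 in ob/ob (SE 0.251, limma adjusted p = 0.315).

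Sqle, squalene epoxidase, adds oxygen to squalene and is a rate-limiting step of the sterol branch. At chr15:59315077-59331192 on the plus strand, it is the only one of the 8 that overlaps 0 other annotated genes. Its values were 6.97, 6.87 and 7.11 in LFD mice, 7.05, 7.88 and 8.49 in HFD mice and 7.64 and 7.72 in ob/ob mice. The LFD mice lay close together and the HFD mice far apart, with HFD 1 inside the LFD range and both ob/ob mice above it. Means were 6.98 ± 0.120, 7.81 ± 0.723 and 7.68 ± 0.0557. HFD exceeded LFD by 0.83 (SE 0.330, 95% interval 0.07 to 1.58, limma adjusted p = 0.228). In ob/ob the difference from LFD was 0.70 (SE 0.369, limma adjusted p = 0.323).

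Lss, lanosterol synthase, closes the ring system from oxidosqualene, and lies at chr10:76531588-76557138 on the plus strand. Its values were 8.64, 7.88 and 7.63 in LFD mice, 7.65, 7.92 and 7.78 in HFD mice and 8.34 and 7.75 in ob/ob mice. LFD 1 and ob/ob 1 were highest, and the values of the LFD mice spanned those of all other mice. Means were 8.05 ± 0.525, 7.79 ± 0.136 and 8.05 ± 0.422. The differences from LFD were -0.26 in HFD (SE 0.285, limma adjusted p = 0.612) and -0.0043 in ob/ob (SE 0.319, limma adjusted p = 0.996). The 95% intervals, -0.91 to 0.39 and -0.73 to 0.72, still allow sizes such as those of Hmgcs1 in ob/ob.

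Cyp51, lanosterol 14-alpha-demethylase, takes the first step after lanosterol. Its gene is at chr5:4081145-4104746 on the minus strand and overlaps Akap9 on the other strand. Its values were 7.65, 7.73 and 7.88 in LFD mice, 8.29, 9.15 and 9.34 in HFD mice and 8.35 and 8.74 in ob/ob mice. Every HFD and ob/ob mouse lay above every LFD mouse, and HFD 1 lay below both ob/ob mice. Means were 7.75 ± 0.114, 8.93 ± 0.561 and 8.55 ± 0.276. The HFD minus LFD difference was 1.17 (SE 0.276, 95% interval 0.54 to 1.80), or 2.26-fold on the rlog scale, with limma adjusted p = 0.176. The ob/ob minus LFD difference was 0.79 (SE 0.309, 95% interval 0.09 to 1.498), or 1.73-fold, with limma adjusted p = 0.24.

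Srebf2 lies at chr15:82147181-82205379 on the plus strand and holds the microRNA gene Mir33 on the same strand. Its values were 8.03, 8.09 and 8.33 in LFD mice, 8.09, 8.34 and 8.9998 in HFD mice and 8.21 and 7.95 in ob/ob mice. HFD 3 stood above the other mice, ob/ob 2 was lowest, and all groups overlapped. Means were 8.15 ± 0.156, 8.48 ± 0.471 and 8.08 ± 0.181. The differences from LFD were 0.33 in HFD (SE 0.247, limma adjusted p = 0.464) and -0.07 in ob/ob (SE 0.276, limma adjusted p = 0.908). SREBP2 works as a cut protein in the nucleus, which RNA does not measure.

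**Figure D1:**
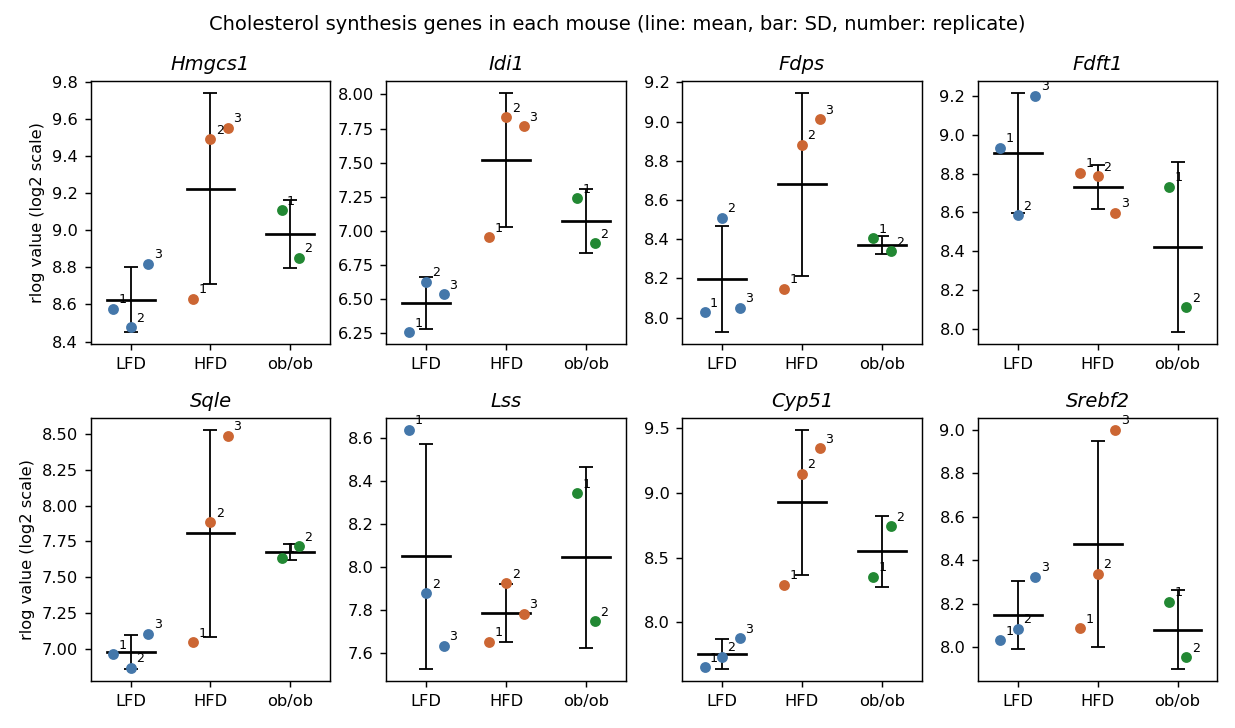
Each panel plots the rlog value (log2 scale, y axis) of 1 gene by group (x axis), with a point and replicate number for each mouse, a black line for the group mean and a bar for the SD. In Hmgcs1, Idi1, Fdps, Sqle, Cyp51 and Srebf2 the points HFD 2 and HFD 3 are the 2 highest of the 8 mice, while Fdft1 and Lss have LFD 1 among the 2 highest.

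The plot of values by mouse shows an order shared by most of the genes. HFD 2 and HFD 3 were the 2 highest mice in 6 of the 8, Fdft1 and Lss being the others. HFD 1 exceeded every LFD mouse in 2 genes, Idi1 and Cyp51. In 5 genes, Hmgcs1, Idi1, Fdps, Sqle and Cyp51, the ob/ob mean lay between the LFD and HFD means. These genes were measured in the same libraries, so their shared order is not independent evidence. Such orders of mice were not counted over all genes, so how common they are is not known here.

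Between ob/ob and HFD, 7 of the 8 genes had a lower mean in ob/ob and Lss a higher one. The count with an unadjusted p under 0.05 was 0 higher and 0 lower, beside 2.28% and 1.63% of all genes, and 0% of all genes passed the adjusted test. The median of the 8 was -0.31, and that of all genes 0.01. The lowest difference was that of Idi1, -0.44 (95% interval -1.15 to 0.26, limma adjusted p = 1). For Sqle it was -0.13 (95% interval -0.97 to 0.71, limma adjusted p = 1). Intervals of this width do not show that the obese groups were alike.

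**Figure D2:**
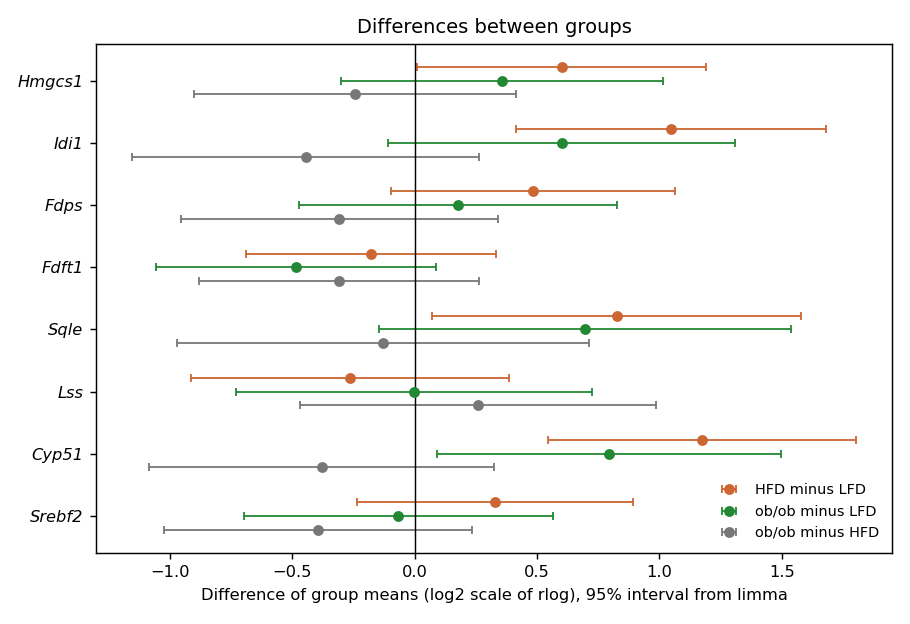
Points give the difference of group means on the log2 scale of the rlog values (x axis) for each gene (y axis), and bars the 95% interval from limma, for HFD minus LFD (orange), ob/ob minus LFD (green) and ob/ob minus HFD (grey). In HFD minus LFD the intervals of Hmgcs1, Idi1, Sqle and Cyp51 lie above 0, in ob/ob minus LFD that of Cyp51, and in ob/ob minus HFD every interval includes 0.

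The HFD count depended on the mice. Without HFD 1 it was 5, and the 5 genes Cyp51, Idi1, Sqle, Hmgcs1 and Fdps then had adjusted p-values of 0.0126 to 0.0371 in limma, as 2812 of all genes passed at that threshold. Without HFD 2, HFD 3, LFD 1, LFD 2 or LFD 3, it was 2, Sqle and Hmgcs1 being lost. Over all genes the number with an unadjusted p under 0.05, 2985 with all mice, was 5445 without HFD 1 and 1480 to 2050 without 1 of the other HFD or LFD mice. The ob/ob against LFD count was 0 without LFD 1 or ob/ob 2, 2 without HFD 3 or ob/ob 1, and 3 without HFD 1, the HFD mice entering it only through the shared spread. The number of all genes with an unadjusted p under 0.05 moved too, from 2831 to 1949 without LFD 1, 752 without ob/ob 2, 3248 without HFD 3, 3859 without ob/ob 1 and 4075 without HFD 1. Fdft1, lower in ob/ob, was among the genes counted without ob/ob 1 or LFD 2. Without HFD 1, 4 genes had an unadjusted p under 0.05 in ob/ob against HFD, all lower in ob/ob, and the number over all genes went from 588 to 987. Centring each mouse on its median turned the split of all genes with an unadjusted p under 0.05 in HFD against LFD from 1728 higher and 1257 lower to 1490 and 1588, with 3 of the 8 genes higher and 0 lower.

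Acinar and proliferation genes are given beside the 8 genes for each mouse. The mean of the 8 was 7.89, 7.85 and 7.94 in LFD mice, 7.95, 8.54 and 8.69 in HFD mice and 8.25 and 8.05 in ob/ob mice. HFD 2 and HFD 3 thus had the 2 highest values, and 2 of the 3 lowest acinar values, whereas ob/ob 2 had an acinar value of 16.4 and a mean of 8.05. The proliferation genes averaged 6.09, 6.77 and 6.47 in LFD mice, 6.95, 8.20 and 9.05 in HFD mice and 7.79 and 8.89 in ob/ob mice. Here too HFD 3 was highest, but ob/ob 2 came before HFD 2. With the acinar mean as a covariate, the HFD count was 2, Cyp51 (0.77, limma adjusted p = 0.321) and Idi1 (0.88, limma adjusted p = 0.379), and the ob/ob count was 0. The number of all genes with an unadjusted p under 0.05 fell too, from 2985 to 1622 in HFD against LFD. In ob/ob against LFD it fell from 2831 to 1559. Sqle then differed by 0.37 (limma adjusted p = 0.651) and Hmgcs1 by 0.38 (limma adjusted p = 0.635) in HFD, and Cyp51 by 0.36 in ob/ob (limma adjusted p = 0.623). The median of the 8 was 0.30 in HFD and 0.09 in ob/ob under that fit, beside 0.54 and 0.27 without the covariate.

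**Figure D3:**
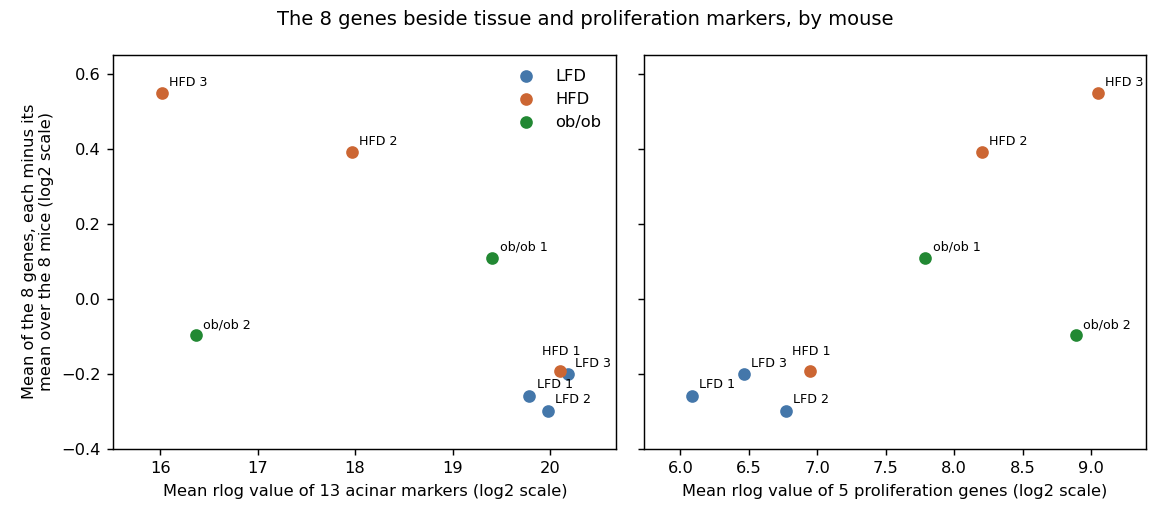
Each point is a mouse, with the mean of the 8 genes after each gene's own mean over the 8 mice was taken off (log2 scale, y axis) against the mean rlog value of 13 acinar markers (left x axis) or 5 proliferation genes (right x axis). HFD 2 and HFD 3 are at the top, HFD 1 lies with the LFD mice at an acinar mean of 20.1, and ob/ob 2 has a low acinar mean (16.4) with a mean of the 8 genes near the middle.

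Markers of other cell types were read in each group as well. In HFD against LFD, unadjusted p was under 0.05 and higher in HFD for 4 of 6 macrophage, 5 of 5 neutrophil, 4 of 6 fibroblast, 3 of 6 ductal and 5 of 5 proliferation genes, for 0 of 13 acinar genes although all 13 had lower means, for 0 of 6 islet, 0 of 4 endothelial and 0 of 5 lymphocyte genes, and lower for 1 of 6 adipocyte genes. In ob/ob against LFD, it was under 0.05 and higher for 5 of 6 macrophage, 2 of 5 neutrophil, 5 of 6 fibroblast, 4 of 6 islet and 5 of 5 proliferation genes. There it was lower for 1 of 6 ductal and 1 of 6 adipocyte genes, with 0 of 13 acinar, 0 of 4 endothelial and 0 of 5 lymphocyte genes. Of all genes, 11.5% were higher and 8.35% lower at that threshold in HFD against LFD, and 11.6% and 7.18% in ob/ob against LFD. The mean of the macrophage genes ran from 8.18 to 8.70 in LFD, from 8.99 to 9.83 in HFD and from 9.66 to 10.4 in ob/ob, and that of the fibroblast genes from 10.1 to 10.5, from 10.99 to 11.8 and from 11.3 to 12.1. All HFD and ob/ob mice thus lay above all LFD mice in both lists. Neutrophil genes averaged 5.31 to 6.15 in LFD, 6.88 to 8.16 in HFD and 6.42 to 6.94 in ob/ob, again without overlap with LFD. How often the means of other sets of genes lie apart in this way was not counted. Ductal genes averaged 7.86 to 8.23 in LFD, 8.25 to 9.05 in HFD and 7.58 to 8.31 in ob/ob, which overlapped LFD. The part of tissue makeup and of proliferation in the values of the 8 genes was not tested beyond the acinar covariate.

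The route from acetyl-CoA to cholesterol was read in 19 enzymes, the 7 above and 12 more, and not every enzyme of the route is reported here. In HFD against LFD, 15 had higher means and 4 lower, 4 were higher with an unadjusted p under 0.05 and 0 lower, and the median was 0.20. These 4 were Hmgcs1, Idi1, Sqle and Cyp51, beside 11.5% of all genes higher and 8.35% lower. In ob/ob against LFD, 13 had higher means and 6 lower, 1 was higher with an unadjusted p under 0.05 and 0 lower, and the median was 0.15. That count of 1 of 19 is below the share of all genes, which was 11.6% higher and 7.18% lower. None of the 19 passed the adjusted test. Enzymes with larger differences were spread along the route, between others with differences near 0.

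**Figure D4:**
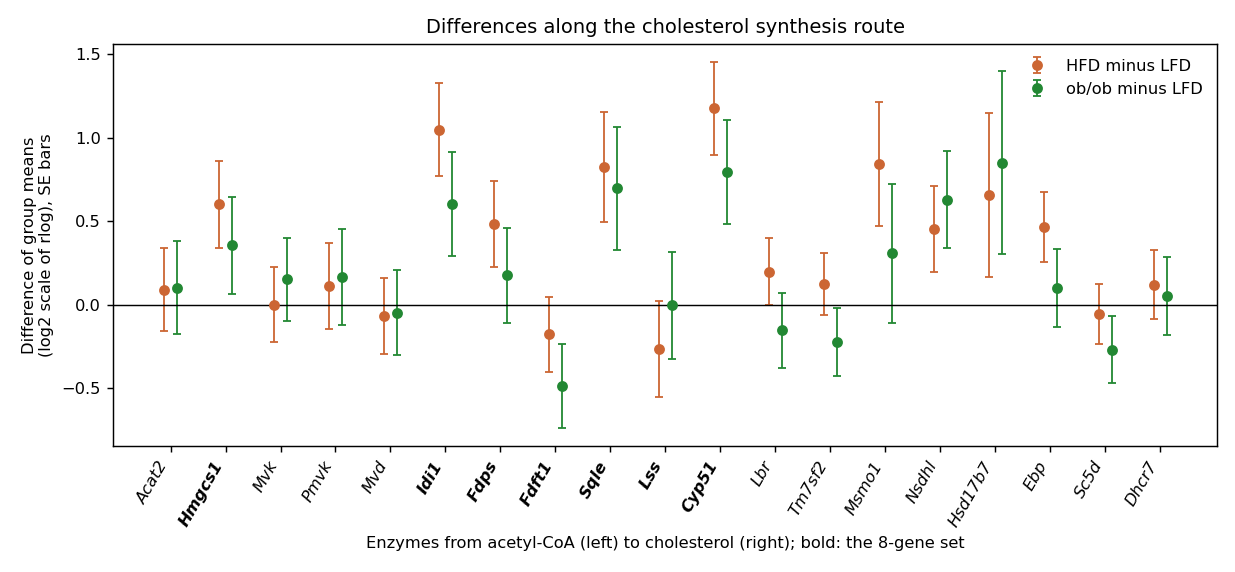
The difference of group means on the log2 scale of the rlog values (y axis) is plotted for 19 enzymes in the order of the route (x axis, 7 of the 8 described genes in bold), for HFD minus LFD (orange) and ob/ob minus LFD (green), with SE bars. Cyp51 (1.17), Idi1 (1.05), Msmo1 (0.84) and Sqle (0.83) have the 4 largest HFD differences of those plotted, while Mvk, Mvd, Fdft1, Lss and Sc5d lie near or below 0.

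Of 7 further mevalonate and prenyl genes reported here, 4 had higher and 3 lower means in each comparison, 0 had an unadjusted p under 0.05, and the list's median was 0.00088 in HFD and 0.10 in ob/ob. Pmvk, phosphomevalonate kinase, had the largest difference in HFD, 0.11 (limma adjusted p = 0.819), and Ggps1, which makes geranylgeranyl diphosphate, the largest in ob/ob, 0.22 (limma adjusted p = 0.471). Dhdds, of dolichol synthesis, had the lowest differences of that list, -0.35 in HFD (limma adjusted p = 0.419) and -0.50 in ob/ob (limma adjusted p = 0.325).

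Among 9 sterol enzymes after lanosterol reported here besides Cyp51, 8 had higher means in HFD and 6 in ob/ob, 0 had an unadjusted p under 0.05, and the medians were 0.20 and 0.05. Msmo1 oxidizes the methyl groups at the C4 carbon. Its values were 7.58, 8.25 and 7.72 in LFD mice, 7.79, 9.05 and 9.24 in HFD mice and 8.04 and 8.28 in ob/ob mice. HFD 2 and HFD 3 were highest, while HFD 1 and ob/ob 1 lay inside the LFD range. Its differences were 0.84 in HFD (limma adjusted p = 0.255) and 0.31 in ob/ob (limma adjusted p = 0.685). Hsd17b7, a ketosteroid reductase, had the largest difference of the list in ob/ob, 0.85 (limma adjusted p = 0.395), and 0.65 in HFD (limma adjusted p = 0.46), and Sc5d the lowest in both, -0.05 in HFD and -0.27 in ob/ob.

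Over the 8 mice, 4 of the 5 genes outside the set whose pattern was most like the mean of the 8 z-scored genes were Nkd1 (Pearson r = 0.983), Samd5 (0.973), Efna1 (0.97) and Trim15 (0.97). Trim15 for example had 2.23, 2.55 and 2.45 in LFD mice, 2.66, 4.85 and 5.36 in HFD mice and 3.24 and 2.77 in ob/ob mice. These r values describe 8 points from 8 shared libraries, picked from all genes as the highest.

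Of 5 genes of cholesterol uptake and transport reported here, 3 had higher means in each comparison, with medians of 0.57 in HFD and 0.84 in ob/ob. Stard4, a cytosolic sterol carrier, had 6.05, 6.17 and 4.86 in LFD mice, 6.35, 6.97 and 7.998 in HFD mice and 6.83 and 6.63 in ob/ob mice, with every HFD and ob/ob mouse above every LFD mouse. It differed by 1.41 in HFD (limma adjusted p = 0.2) and by 1.03 in ob/ob (limma adjusted p = 0.314). Npc1 and Npc2, which release cholesterol from lysosomes, differed in ob/ob by 1.04 (limma adjusted p = 0.245) and 0.84 (limma adjusted p = 0.224). In HFD they differed by 0.64 and 0.57, with limma adjusted p = 0.345 and adjusted p = 0.273. Tmem97, a regulator of NPC1, went the other way, with -1.41 in HFD (limma adjusted p = 0.305) and -1.48 in ob/ob (limma adjusted p = 0.332). Its values were 12.04, 11.90 and 11.99 in LFD mice, 11.95, 10.61 and 9.15 in HFD mice and 11.64 and 9.36 in ob/ob mice. The 3 low mice, HFD 2, HFD 3 and ob/ob 2, were those with the lowest acinar means, whose part in these values was not tested.

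In the list of 9 genes for the control of SREBP, the medians were -0.03 in HFD and -0.10 in ob/ob. Scap, the escort of SREBP2, had 9.30, 9.22 and 9.09 in LFD mice, 8.94, 8.61 and 8.25 in HFD mice and 8.70 and 8.46 in ob/ob mice. Every HFD and ob/ob mouse lay below every LFD mouse. The lowest values of Scap were in HFD 3, ob/ob 2 and HFD 2, the mice with the lowest acinar means, whose part in these values was not tested. The differences were -0.60 in HFD (limma adjusted p = 0.201) and -0.62 in ob/ob (limma adjusted p = 0.227). Its unadjusted p was under 0.05 in both. Rnf145, a ubiquitin ligase that acts on SCAP, differed by 0.70 in ob/ob (limma adjusted p = 0.232) and by 0.29 in HFD (limma adjusted p = 0.497).

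Efflux, storage and LXR genes, which act when sterols are plentiful, had medians of -0.03 in HFD and 0.01 in ob/ob over 14 genes. Apoe, the apolipoprotein made by liver and macrophages, had the highest difference, 1.64 in ob/ob (SE 0.404, limma adjusted p = 0.179), and 0.76 in HFD (limma adjusted p = 0.28). Abca1, the exporter of cholesterol to apolipoprotein A1, differed by 0.79 in ob/ob (limma adjusted p = 0.248) and by 0.07 in HFD. Mylip, a ubiquitin ligase induced by LXR, differed by -0.53 in HFD (limma adjusted p = 0.203) and by -0.07 in ob/ob. Lcat, which esterifies plasma cholesterol, had the lowest differences of the list, -1.53 in HFD (limma adjusted p = 0.33) and -1.25 in ob/ob (limma adjusted p = 0.459). Its values were lowest in the same 3 mice with low acinar means (5.41, 4.37 and 4.50, beside 6.73 to 7.43 in the others). The macrophage genes named above were also higher in ob/ob than in LFD, and their part in Apoe and Abca1 was not tested.

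Fatty acid synthesis and desaturation genes are more often driven by SREBP1. Of 10 genes, 8 had lower means in HFD, 5 of them with an unadjusted p under 0.05, and 1, Me1, was higher with an unadjusted p under 0.05, beside 8.35% of all genes lower and 11.5% higher. The list's median was -0.37 in HFD. In ob/ob 6 had lower means, 2 with an unadjusted p under 0.05, beside 7.18% of all genes, and the median was -0.11. Scd1, a stearoyl-CoA desaturase, had 12.03, 11.58 and 11.003 in LFD mice, 10.5, 10.1 and 10.1 in HFD mice and 11.1 and 10.2 in ob/ob mice. It differed from LFD by -1.30 in HFD (limma adjusted p = 0.179) and by -0.89 in ob/ob (limma adjusted p = 0.249). Unlike Hmgcs1 and Sqle, Scd1 had HFD 1 outside the LFD range, below it. Scd1 was lowest in HFD 3, HFD 2 and ob/ob 2, the mice with the lowest acinar means, whose part was not tested.

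Fads2 and Fads1, desaturases of polyunsaturated fatty acids, differed by -0.97 (limma adjusted p = 0.18) and -0.60 (limma adjusted p = 0.179) in HFD. In ob/ob they differed by -0.81 (limma adjusted p = 0.225) and -0.13 (limma adjusted p = 0.69). Fads2, but not Fads1, was lowest in ob/ob 2, HFD 3 and HFD 2, the mice with the lowest acinar means, whose part was not tested. Acss2, which makes acetyl-CoA from acetate, and Fasn, fatty acid synthase, differed by -0.67 (limma adjusted p = 0.187) and -0.43 (limma adjusted p = 0.249) in HFD. Me1, malic enzyme, went the other way in HFD, with 1.20 (limma adjusted p = 0.195).

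**Figure D5:**
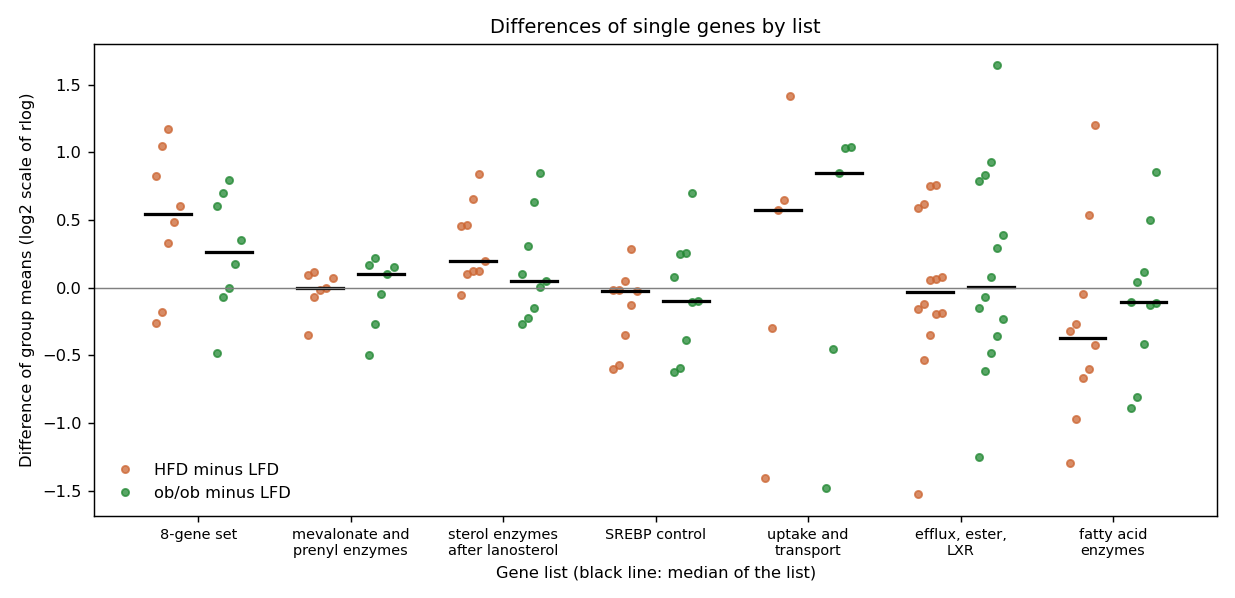
Each point is a gene, placed by its difference of group means on the log2 scale of the rlog values (y axis), in HFD minus LFD (orange) and ob/ob minus LFD (green), for the 8 described genes and 6 lists of related genes (x axis), with a black line at each median. The medians of the 8 genes (0.54 and 0.27) and of uptake and transport (0.57 and 0.84) lie above those of the SREBP control list (-0.03 and -0.10) and the fatty acid list (-0.37 and -0.11).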

How the data were processed

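Pancreas RNA of 8 male mice was sequenced in paired-end mode. Per the study's methods and the labels, the authors quantified transcripts of Gencode M18 (GRCm38.p6) with Salmon 0.11.3, aggregated them per gene with tximport, and deposited rlog values of DESeq2 1.22.2, which are on a log2 scale. Salmon splits reads that fit several transcripts, so overlapping genes carry an uncertainty not shown in the values. The filter that left 15047 genes, and the rlog and strand settings, are not given in the sources used here. Mice were grouped by their labels, which do not mention the transplant. Group differences were fitted by limma 3.58.1 (R 4.3.3, two-sided) with 1 mean per group over all 8 mice and empirical Bayes variances that follow the mean level. The step was tested on simulated data. Alternatives were no trend, only the groups compared, a mean rlog of at least 5, median centring, quantile normalization, array weights, the replicate block, an acinar covariate and leaving out each mouse. Genes, lists and naming rule were chosen with earlier results of these data known. All 8 genes were described. Of each related list, the genes named had an unadjusted p under 0.05 in HFD or ob/ob against LFD, or the largest difference each way. Loci came from Gencode M21 and promoters from RefSeq, both on GRCm38. Of 125 listed genes, 124 were found, and Idi2 was not analysed here. Some further genes of these pathways are not reported here and are left out of the list counts and medians, whatever their values. Figures were drawn with matplotlib 3.10.9.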

Additional observations from a re-analysis of the deposited data

How the results depend on the processing

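The count of the 8 genes higher in HFD than in LFD with an unadjusted p under 0.05 was 4 as reported and 2 with the acinar mean as a covariate. Over all genes, 2985 had an unadjusted p under 0.05 as reported and 1622 with that covariate. When 1 LFD or HFD mouse was left out, the count was between 2 and 5, and the median difference of the 8 ran from 0.38 to 0.82. Array weights, which stopped before convergence with a weight of 9.36 for HFD 2 and 0.273 for HFD 1, gave 5, all with an adjusted p under 0.05 (0.000738 to 0.00907 in limma), as had 6656 of all genes. The ob/ob against LFD count, 1 as reported, was 3 with only the groups compared, 2 with array weights, 2 with the replicate block and 0 with the acinar covariate. Over all genes the number with an unadjusted p under 0.05 was 2831 as reported. In those settings it was 3934, 3277, 3243 and 1559, in the same order. The count was between 0 and 3 when 1 LFD or HFD mouse was left out. The ob/ob against HFD count, 0 as reported, was 2 with array weights, as the number over all genes went from 588 to 980. It was between 0 and 4 when 1 LFD or HFD mouse was left out, 4 without HFD 1. Leaving out an ob/ob mouse leaves 1, which is assumed to vary like the others. In HFD against LFD, Fdft1 turned to 0.0349 with the acinar covariate and Lss ran from -0.472 to 0.0306 when 1 mouse was left out. In ob/ob against LFD, Lss turned to 0.00586 with quantile normalization and 0.0654 with the acinar covariate, Fdps to -0.0935 with the acinar covariate and Srebf2 to 0.11 with the replicate block. When 1 mouse was left out, Lss ran from -0.303 to 0.294 and Srebf2 from -0.194 to 0.0621. In ob/ob against HFD, Sqle turned to 0.0726 with the replicate block, and when 1 mouse was left out Sqle ran from -0.509 to 0.211, Lss from -0.0385 to 0.559 and Fdft1 from -0.618 to 0.0024. The causes were not tested. Of 384 recomputed differences of single genes, 332 kept their direction and side of the threshold, 21 lost an unadjusted p under 0.05, 17 gained it and 14 changed sign. With no trend, only the groups compared or a mean rlog of at least 5, a difference could not change, only its p-value. The same held when the mouse left out was in neither group compared, so such settings could not show a change of sign. The deviations of mice with the same replicate number had correlations from -0.281 to 0.592, over 0.1 in some pairs and below 0 in others. Deviations from a group mean cancel within the group, and those of ob/ob 1 and ob/ob 2 are mirror images. These correlations thus cannot decide whether the numbers pair the mice, which were not taken as paired. Median centring moved the split of all genes with an unadjusted p under 0.05 in HFD against LFD from 1728 higher and 1257 lower to 1490 and 1588, and in ob/ob against LFD from 1751 and 1080 to 1511 and 1377. Without known depth, no counting error can be given.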
